A study of Mus musculus with 6 samples.

Results

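The genes described here encode subunits of cohesin and condensin, the ring-shaped complexes that hold and fold chromosomes. Members were taken as the rows of the count table whose symbol is Smc1a, Smc3, Rad21, Stag1 or Stag2 for cohesin, and Smc2, Smc4, Ncapd2, Ncapg or Ncaph for condensin. All 10 were found among the 27179 genes of the table, and all 10 were among the 12800 genes that passed the filter on low counts. RNA was from the mouse line C2C12, whose myoblasts divide while serum is high and fuse into syncytial myotubes once it is withdrawn. Myoblasts (3 libraries) were harvested sub-confluent from high glucose medium with 10% fetal bovine serum. For the 3 myotube libraries, cells spent 3 days at full confluence and then 5 days in high glucose medium with 2% horse serum and added insulin, transferrin, selenium and ethanolamine. Both media held 4 mM glutamine. Serum, supplements, cell density and differentiation differ together between the groups and cannot be told apart. The labels name 1 cell line, a harvest in triplicate and no separate cultures, so p-values cover only how far these libraries scatter, which may be technical scatter.

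Cohesin is a ring of the ATPases Smc1a and Smc3 closed by the kleisin Rad21, to which either Stag1 or Stag2 binds. It extrudes chromatin loops in interphase, where CTCF stops it at loop anchors, and it holds sister chromatids together from S phase until separase cuts Rad21 at anaphase. Condensin is built on the ATPases Smc2 and Smc4 and compacts chromosomes for mitosis. Condensin I adds Ncapd2, Ncapg and the kleisin Ncaph and reaches chromosomes after the nuclear envelope breaks down, while condensin II adds Ncapd3, Ncapg2 and Ncaph2 and is nuclear through interphase. Myoblasts leave the cell cycle before they fuse, and myonuclei do not divide again, so the cohesin of a myotube acts in interphase.

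Promoters are shown for part of the genes, and the choice does not follow the order of the changes given further on. Ncaph, with a log2 change of -3.21, is not shown, while Ncapd2, with one of -3.12, is. Whether motifs go with changes can therefore not be read from the sequences shown. Matches in promoters that are not shown are described below. RefSeq promoters of the GRCm38.p6 assembly, 250 bases before and 50 after the start of transcription, were matched for 7 of the 10 members (Smc1a, Smc3, Stag1, Smc2, Ncapd2, Ncapg and Ncaph). They were searched on both strands for 5 motifs of cell-cycle promoters. These were the cell cycle genes homology region (CHR), TTTGAA, its variant TTTAAA, the CCAAT box, CCAAT, and 2 forms of the E2F site, TTCCCGC and TTGGCGC. Capitals mark the matches, which do not overlap in the promoters shown. Each sequence is written 5′ to 3′ on the strand of its gene. Ncapg lies at chr5:45669675-45669974 on the plus strand, Ncapd2 at chr6:125191537-125191836 on the minus strand, Smc2 at chr4:52438971-52439270 on the plus strand, Ncapg2 at chr12:116405186-116405485 on the plus strand, Ncaph2 at chr15:89355469-89355768 on the plus strand and Smc1a at chrX:152016178-152016477 on the plus strand.
Ncapg: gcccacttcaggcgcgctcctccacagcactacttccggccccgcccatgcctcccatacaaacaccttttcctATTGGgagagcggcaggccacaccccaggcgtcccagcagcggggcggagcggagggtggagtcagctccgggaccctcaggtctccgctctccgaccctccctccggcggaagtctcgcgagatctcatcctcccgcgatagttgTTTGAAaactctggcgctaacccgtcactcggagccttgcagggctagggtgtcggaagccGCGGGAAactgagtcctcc
Ncapd2: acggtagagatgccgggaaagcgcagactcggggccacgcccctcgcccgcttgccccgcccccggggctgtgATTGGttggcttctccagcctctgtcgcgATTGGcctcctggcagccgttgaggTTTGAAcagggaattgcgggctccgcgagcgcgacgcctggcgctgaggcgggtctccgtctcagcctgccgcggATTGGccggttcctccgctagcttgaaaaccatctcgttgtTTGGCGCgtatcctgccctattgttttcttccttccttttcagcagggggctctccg
Smc2: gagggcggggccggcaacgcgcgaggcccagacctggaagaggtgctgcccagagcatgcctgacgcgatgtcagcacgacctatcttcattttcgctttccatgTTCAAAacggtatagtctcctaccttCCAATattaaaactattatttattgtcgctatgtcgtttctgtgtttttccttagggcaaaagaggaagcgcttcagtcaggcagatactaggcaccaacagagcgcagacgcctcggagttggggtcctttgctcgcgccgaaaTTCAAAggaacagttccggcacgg
Ncapg2: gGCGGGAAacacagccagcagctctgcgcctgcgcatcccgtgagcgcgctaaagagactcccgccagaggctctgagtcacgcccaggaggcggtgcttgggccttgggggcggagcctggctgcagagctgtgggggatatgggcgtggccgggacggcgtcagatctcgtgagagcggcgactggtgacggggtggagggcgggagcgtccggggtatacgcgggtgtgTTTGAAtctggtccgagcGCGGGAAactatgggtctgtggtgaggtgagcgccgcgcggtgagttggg
Ncaph2: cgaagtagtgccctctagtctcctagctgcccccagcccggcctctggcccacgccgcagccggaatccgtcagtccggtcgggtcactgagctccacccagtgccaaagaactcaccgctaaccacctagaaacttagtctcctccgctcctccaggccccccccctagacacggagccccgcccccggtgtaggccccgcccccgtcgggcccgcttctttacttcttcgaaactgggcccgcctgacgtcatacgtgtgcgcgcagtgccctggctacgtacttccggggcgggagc
Smc1a: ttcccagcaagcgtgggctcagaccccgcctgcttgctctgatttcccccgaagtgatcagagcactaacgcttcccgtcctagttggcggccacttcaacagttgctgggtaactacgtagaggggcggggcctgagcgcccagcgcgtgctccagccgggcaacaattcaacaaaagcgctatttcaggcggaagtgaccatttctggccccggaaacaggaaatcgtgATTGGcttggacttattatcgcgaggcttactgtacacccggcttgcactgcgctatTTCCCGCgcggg

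The CHR letters stood in 3 of the 4 condensin promoters, those of Smc2, Ncapd2 and Ncapg, and in 0 of the 3 cohesin promoters. They were held by 17.9% of all 32851 RefSeq promoters. Counted from the start of transcription, with the leftmost letter of the match as its position, they lay at -30 in Ncapg, at -123 in Ncapd2, and at -145 and 27 in Smc2. In Ncapd2 they came with 3 CCAAT boxes, and in Smc2 and Ncapg with 1 each. CCAAT stood in 37.4% of all promoters. E2F letters stood in these promoters too, TTGGCGC at -7 in Ncapd2 and TTCCCGC at 32 in Ncapg, while Smc2 held neither form. Ncaph had 0 CHR letters and the E2F letters TTGGCGC at 42, a motif of 2.45% of all promoters. Among condensin II genes, Ncapg2 had the CHR letters at -18 and TTCCCGC at 1 and -249, while Ncaph2 had no match to any of the 5 motifs. Ncapd3, with 2 promoters, had TTGGCGC at -240 in promoter 1. Its promoter 2 held the CHR letters at -249 and TTTAAA at -132. TTCCCGC stood in 4.60% and TTTAAA in 13.2% of all promoters. On the cohesin side, the promoters of Smc1a and Stag1 each held 1 CCAAT box and 1 TTCCCGC, and that of Smc3 none of the motifs. The Stag1 window, at chr9:100643198-100643497, lies inside the gene, whose annotated start is 100597709. No window at that start was searched. A match is a description of letters in this window and no evidence that a factor binds. Counted by gene with a promoter, the CHR letters were also found in 7 of 9 mitotic chromosome genes and 3 of 8 genes of cohesion in S phase and mitosis. They were found in 3 of 6 interphase cohesin regulators, and in 20.2% of all 27025 genes with a promoter.

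All 5 condensin members fell steeply in myotubes, whereas 4 cohesin members fell by less than 2-fold and Stag2 was not called. Of the 5 condensin members 5 were lower by edgeR's quasi-likelihood test at an adjusted p of 0.05, a call that 39.2% of all genes tested received, and 5 were lower by more than 2-fold (glmTreat at the same threshold), a call that 9.20% received. Of the 5 cohesin members 4 were lower and 0 were lower by more than 2-fold. No overlap between the groups was seen for 9 of the 10 members, all lower in myotubes, as for 80.5% of all genes tested (40.6% higher and 39.9% lower). Because 79.5% of all genes were called in either direction, and 21.6% past 2-fold, the call at the plain threshold says little about any member, and the sizes carry the description. In these bulk samples, fewer cells of a type and less RNA per cell cannot be told apart. The median log2 change was -3.21 over condensin members and -0.89 over cohesin members, beside 0.02 over all genes tested. Levels are given as CPM, a gene's counts relative to the TMM-scaled total of its library (counts-per-million), with SD over the 3 libraries where ± is used. In the plot of levels by library the condensin genes show the wider gap between the groups.

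**Figure D1:**
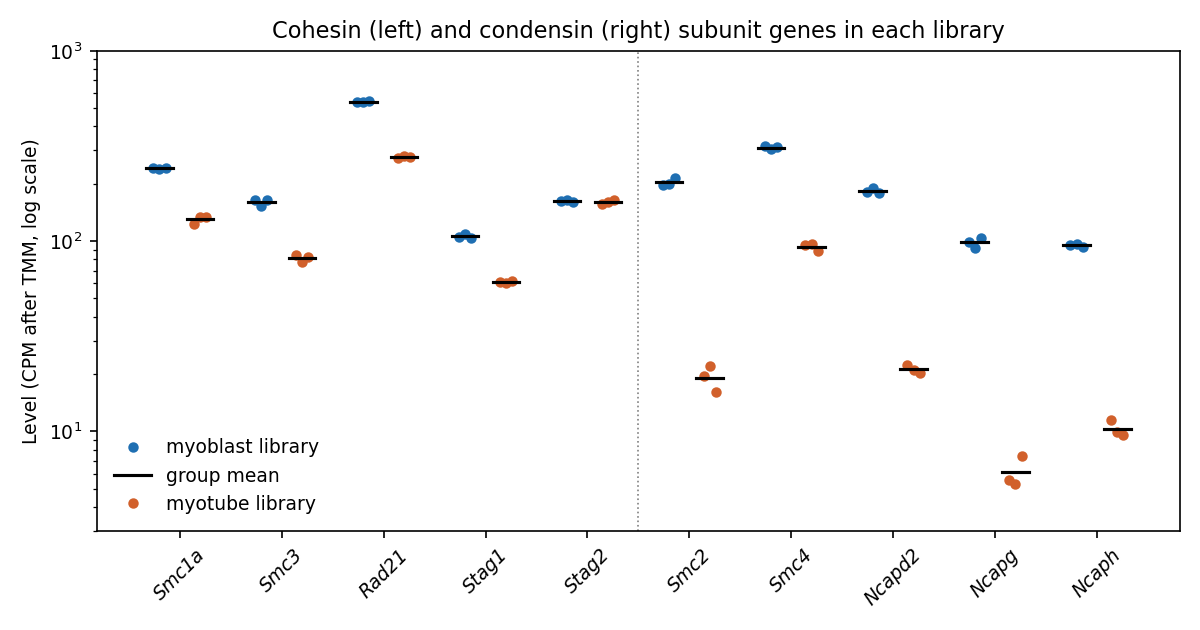
Level of each cohesin gene (left of the dotted line) and condensin gene (right) in CPM after TMM scaling, on a log axis. Points are the 3 myoblast and 3 myotube libraries and bars the group means. The 2 groups are apart for every gene shown except Stag2, and Ncapg has the lowest myotube level, 6.10 CPM.

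The condensin core ATPases fell unequally. Smc2 (Entrez gene 14211, chromosome 4 at 52439221 to 52488365 in GRCm38) had 198, 199 and 214 CPM in myoblasts and 19.6, 21.9 and 16.0 CPM in myotubes. Every myotube library lay far below every myoblast library. The level fell 10.6-fold (log2 change -3.41, SE 0.07, adjusted p = 1.14e-23 by edgeR's quasi-likelihood test). Its partner Smc4 (chromosome 3 at 69004738 to 69034623) had 315, 303 and 311 CPM in myoblasts and 95.5, 96.5 and 88.7 CPM in myotubes. The groups were again apart, but with a smaller gap, a 3.31-fold fall (log2 change -1.73, SE 0.04, adjusted p = 1.08e-21). Of the 12800 log2 changes, 5.23% were at or below that of Smc4 and 1.41% at or below that of Smc2.

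The subunits that define condensin I all fell by more than 8-fold in mean level. Ncapg, a HEAT-repeat subunit that binds DNA together with the kleisin, had 99.1, 91.8 and 104 CPM in myoblasts and 5.57, 5.28 and 7.45 CPM in myotubes. This was the largest fall of the 10 members, 16.1-fold (log2 change -4.00, SE 0.10, adjusted p = 3.66e-22). In myotubes it rested on 39, 39 and 59 counts. Ncapg (chromosome 5 at 45669891 to 45700547) shares 13.4% of its exon bases with Lcorl on the opposite strand, and whether counting used the strand is not stated by the labels. Lcorl rose from 14.8 ± 1.53 to 28.3 ± 2.82 CPM (SD, n = 3), opposite in direction to Ncapg. If counting ignored the strand, reads from the shared stretch cannot be assigned, and with the setting unknown the Ncapg level is uncertain to that extent. Ncapd2, the other HEAT-repeat subunit (chromosome 6 at 125168007 to 125192100), had 182, 189 and 180 CPM in myoblasts and 22.3, 21.0 and 20.3 CPM in myotubes. It fell 8.65-fold (log2 change -3.12, SE 0.06, adjusted p = 2.35e-24), with groups far apart. The kleisin Ncaph (chromosome 2 at 127103809 to 127133954) had 95.4, 96.6 and 93.2 CPM in myoblasts and 11.4, 9.88 and 9.60 CPM in myotubes. Its fall of 9.23-fold (log2 change -3.21, SE 0.08, adjusted p = 2.95e-22) was close to that of Ncapd2, and the difference between the 2 was not tested.

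The cohesin ring genes fell to close to 50% of their myoblast level. Rad21, the kleisin that separase cleaves (chromosome 15 at 51962604 to 51993538), had 540, 539 and 542 CPM in myoblasts and 272, 279 and 277 CPM in myotubes. Within each group the libraries differed by little, and the groups were apart (51.1% of the myoblast level, log2 change -0.97, SE 0.04, adjusted p = 5.29e-18). The ATPase Smc3 (chromosome 19 at 53600396 to 53645831) had 165, 153 and 164 CPM in myoblasts and 84.6, 77.3 and 82.9 CPM in myotubes. It went to 50.8% of its myoblast level (log2 change -0.98, SE 0.05, adjusted p = 2.85e-15). Smc1a, the other ATPase (chromosome X at 152016428 to 152061973), had 242, 240 and 243 CPM in myoblasts and 122, 134 and 134 CPM in myotubes. This is 53.9% of the myoblast level (log2 change -0.89, SE 0.04, adjusted p = 9.72e-16). For the ring genes, no change was called past 2-fold (adjusted p = 1 each by glmTreat), and 12.9 to 14.7% of all log2 changes were at or below theirs.

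The alternative subunits Stag1 and Stag2 parted. Stag1 (chromosome 9 at 100597709 to 100958544) had 105, 109 and 103 CPM in myoblasts and 60.8, 60.0 and 61.9 CPM in myotubes. It fell to 57.5% of its myoblast level with no overlap between groups (log2 change -0.80, SE 0.05, adjusted p = 4.06e-13). Stag2 (chromosome X at 42149297 to 42277186) had 163, 164 and 161 CPM in myoblasts and 156, 161 and 165 CPM in myotubes. The groups overlapped, and Stag2 was the 1 member not called (log2 change -0.015, SE 0.042, adjusted p = 0.747). When TMM was replaced by total counts, the median of all log2 changes shifted by -0.15, and the Stag2 change became -0.16 and was then called (adjusted p = 0.00116). Relative to that median the change was -0.03 under both scalings. Under total counts Smc3 and Rad21 also passed the 2-fold test (adjusted p = 0.0145 and 0.00275).

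**Figure D2:**
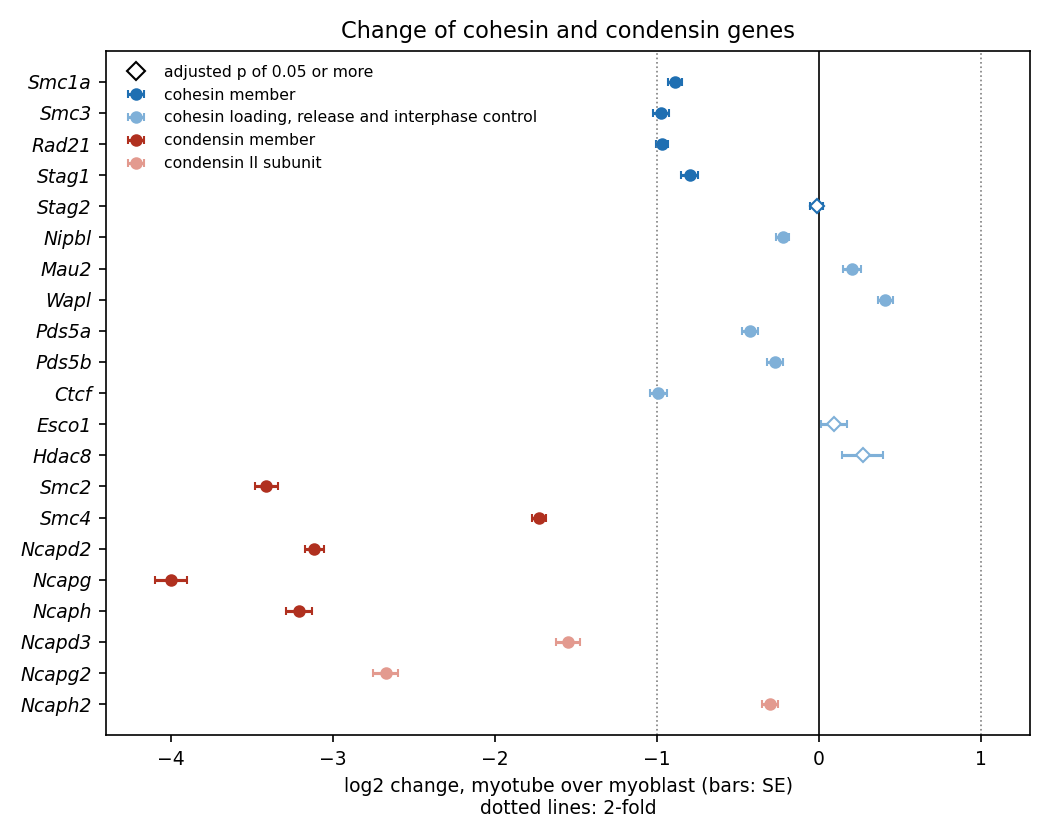
Log2 change of myotube over myoblast with its SE for cohesin members, regulators of cohesin loading, release and interphase action, condensin members and condensin II subunits. Open diamonds mark genes with an adjusted p of 0.05 or more, and dotted lines mark 2-fold. The condensin members lie between -4.00 and -1.73, the cohesin members between -0.98 and -0.02.

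The paralog pairs show how the make-up of the transcripts shifted. Shares below are of CPM per kilobase of annotated exon (GENCODE union exon length), so that genes of unequal length can be set side by side. Stag1 made up 31.2, 31.9 and 31.1% of the Stag1 and Stag2 sum in myoblasts and 21.4, 20.8 and 20.9% in myotubes. With the longest coding transcript as length the mean shares were 39.4 ± 0.47% and 27.4 ± 0.44% (SD, n = 3), so the size of the share and of its fall depend on the length used, while the groups were apart with either length. The log2 ratio of Stag1 over Stag2 differed by -0.78 between the groups, from -0.62 ± 0.03 to -1.39 ± 0.03. By exact permutation of the libraries, two-sided, p was 0.1, which is the smallest that 3 against 3 libraries allow and stays 0.1 after adjustment over the 4 paralog ratios tested. No ratio in this family could therefore pass 0.05.

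In each of the 3 pairs the condensin I gene had a lower share in every myotube library than in any myoblast library. The kleisin share of Ncaph in Ncaph and Ncaph2 was 33.5, 34.3 and 33.9% in myoblasts and 6.44, 6.49 and 6.28% in myotubes. The HEAT subunit Ncapd2 held 78.1, 79.4 and 79.5% of its sum with Ncapd3 in myoblasts and 57.2, 56.4 and 54.4% in myotubes. Ncapg held 53.9, 52.8 and 53.0% of its sum with Ncapg2 in myoblasts and 27.6, 26.5 and 39.3% in myotubes, where the third library stood above the other two. On the log2 scale the ratio of condensin I to condensin II gene differed between the groups by -2.85 for the kleisins, -1.56 for Ncapd2 over Ncapd3 and -1.27 for Ncapg over Ncapg2. Each had an exact permutation p = 0.1 (adjusted 0.1), again the smallest possible.

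**Figure D3:**
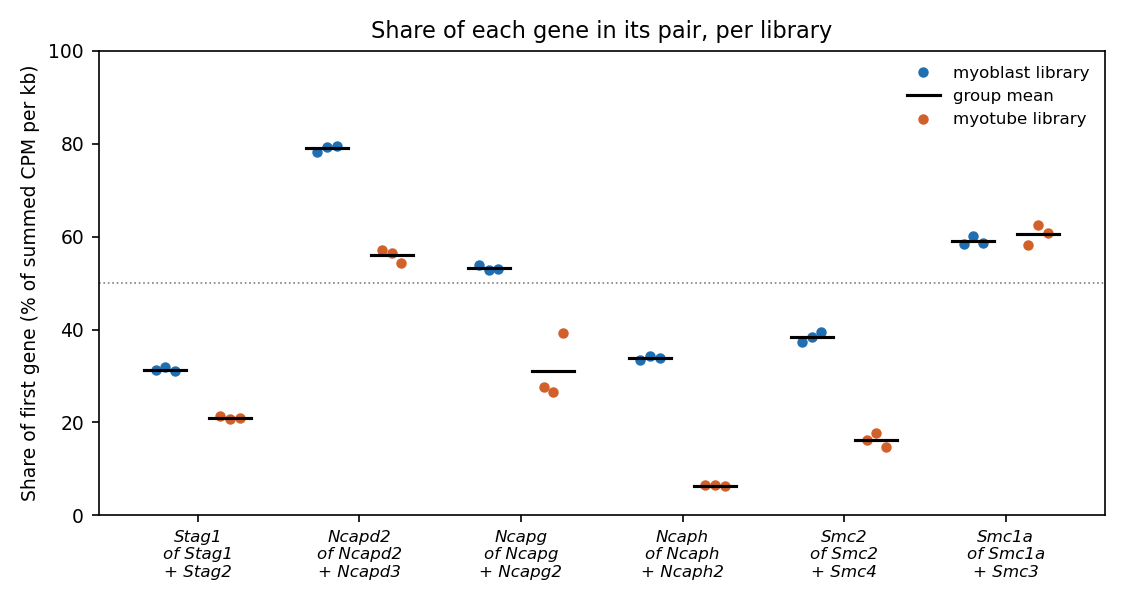
Share of the first-named gene in its pair, as a percent of the summed CPM per kilobase of exon, for each library. Points are libraries and bars group means. Stag1, Ncapd2, Ncapg, Ncaph and Smc2 have lower shares in all myotube libraries than in any myoblast library, while the shares of Smc1a overlap.

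Condensin II itself was uneven. Ncapg2 averaged 122 ± 7.43 CPM in myoblasts and 19.1 ± 2.54 CPM in myotubes, a fall with a log2 change of -2.67 (SE 0.08, adjusted p = 9.90e-21). Ncapd3 averaged 61.4 ± 2.76 and 21.0 ± 0.518 CPM, a fall with a log2 change of -1.55 (SE 0.07, adjusted p = 3.31e-16). Both passed the 2-fold test. The kleisin Ncaph2 had 184, 180 and 177 CPM in myoblasts and 162, 139 and 140 CPM in myotubes, a small fall to 81.1% of the myoblast level (log2 change -0.30, SE 0.05, adjusted p = 5.88e-06). Ncaph2 shares 19.7% of its exon bases with Tymp and Sco2 on the opposite strand. Of the windows of its longest coding transcript, 32.3% also occur, on either strand, in transcripts of other genes. Among these are Tymp and Sco2, so this share includes the overlap just given, and Gm7535. The Ncaph2 level is uncertain over these stretches. Tymp is listed at no more than 1.46 CPM in any library and Sco2 at 0 counts, and reads from the shared stretch may be missing from these genes as well as from Ncaph2.

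The partners inside each core were compared in the same way, after their values had been seen and with no test. Smc2 made up 37.3, 38.5 and 39.5% of the Smc2 and Smc4 sum per kilobase in myoblasts and 16.3, 17.8 and 14.7% in myotubes. Smc1a made up 59.1 ± 0.92% of the Smc1a and Smc3 sum in myoblasts and 60.5 ± 2.19% in myotubes (SD, n = 3), with overlapping libraries. The shares of the cohesin ATPase genes differed between groups by less than the spread of the libraries, and those of the condensin ATPase genes by more.

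Levels per kilobase of exon ordered the members differently in the 2 states. In myoblasts Rad21 was highest at 128 ± 0.34 CPM per kilobase, followed by Smc4 at 59.5 ± 1.15, Smc1a at 41.9 ± 0.23 and Smc2 at 37.2 ± 1.61. Ncapd2 (29.3 ± 0.79) and Smc3 (29.0 ± 1.23) did not differ beyond their spread. Ncaph (22.1 ± 0.40), Stag2 (19.6 ± 0.17), Ncapg (13.9 ± 0.89) and Stag1 (8.98 ± 0.25) followed. In myotubes the cohesin genes and Smc4 came before all other condensin genes. Rad21 had 65.2 ± 0.88, Smc1a 22.6 ± 1.16, Stag2 19.4 ± 0.52, Smc4 18.0 ± 0.82, Smc3 14.7 ± 0.69 and Stag1 5.17 ± 0.08 CPM per kilobase. Below them Smc2 (3.50 ± 0.54) and Ncapd2 (3.38 ± 0.16) did not differ beyond their spread, and Ncaph had 2.39 ± 0.23 and Ncapg 0.863 ± 0.17 CPM per kilobase. With the longest coding transcript as length, neighbours changed places (Ncapd2 at 39.6 stood above Smc2 at 37.7 in myoblasts), while Rad21 stayed highest in both states and Ncapg lowest in myotubes.

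Genes that load, release or position cohesin in interphase moved in both directions, none past 2-fold, and Ctcf fell the most. Of 8 such genes, 4 were called lower and 2 higher (the call rate over all genes was 39.2% lower and 40.2% higher), 0 passed the 2-fold test, and the median log2 change was -0.07. The loader subunit Nipbl fell from 208 ± 2.82 CPM in myoblasts to 178 ± 6.19 CPM in myotubes (-0.22 on the log2 scale, SE 0.04, adjusted p = 2.75e-05). The other loader subunit, Mau2, rose by 0.20 on the log2 scale (SE 0.05, adjusted p = 0.00141), a call that was lost when libraries were scaled by total counts (log2 change 0.057, adjusted p = 0.334). Wapl, which opens the ring and releases cohesin from chromatin, rose from 114 ± 2.74 to 151 ± 3.75 CPM (0.41 on the log2 scale, SE 0.04, adjusted p = 7.69e-09). It was the largest rise of the 8. The ring-bound regulators Pds5a and Pds5b fell by 0.43 and 0.27 on the log2 scale (adjusted p = 1.21e-08 and 2.07e-05). Ctcf, the zinc-finger protein at loop anchors, fell from 115 ± 1.91 to 57.5 ± 1.53 CPM (-0.99 on the log2 scale, SE 0.05, adjusted p = 3.68e-15), a size like that of the ring genes. It overlaps Agrp and Gm5914 on the opposite strand for 7.61% of its exon bases. The Smc3 acetyltransferase Esco1 had 29.2 ± 2.41 and 31.0 ± 1.92 CPM and was not called (adjusted p = 0.314), its change being 0.09 with TMM and -0.055 with total counts. The Smc3 deacetylase Hdac8 had 9.47 ± 0.969 and 11.4 ± 0.407 CPM and was not called (adjusted p = 0.0586).

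Cohesin factors of S phase and mitosis fell with condensin. All 11 tested were lower (39.2% of all genes tested were), all 11 by more than 2-fold (9.20% of all genes), with a median log2 change of -3.29. Espl1, the separase that cuts Rad21, fell from 122 ± 5.93 to 6.77 ± 1.41 CPM (-4.17 on the log2 scale, SE 0.09, adjusted p = 3.70e-23). Chtf18, a subunit of the clamp loader that acts in cohesion establishment, fell by 3.99 (SE 0.14) and overlaps Gng13 on the opposite strand for 7.53% of its exon bases. The acetyltransferase of S phase, Esco2, had a log2 change of -3.64 beside 0.09 for Esco1. Sororin (Cdca5), which protects cohesion from Wapl, had one of -3.45 beside 0.41 for Wapl, and shugoshin 1 (Sgo1) one of -3.80. Esco2, Cdca5 and Sgo1 were picked with their values in view.

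The 12 mitotic chromosome genes were all lower, 11 of them by more than 2-fold, beside 39.2% and 9.20% of all genes tested, with a median log2 change of -3.70. The mitotic kinase Plk1 had a log2 change of -4.29 and the chromosome surface protein Mki67 one of -4.03, from 558 ± 13.5 to 34.2 ± 1.72 CPM. Mcph1, which restrains condensin II in interphase, was the 1 gene not past 2-fold (log2 change -0.69) and was named after its values were seen. The log2 change of Smc4 was smaller in size than those of 11 of these 12 genes, a comparison of fitted values without a test.

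**Figure D4:**
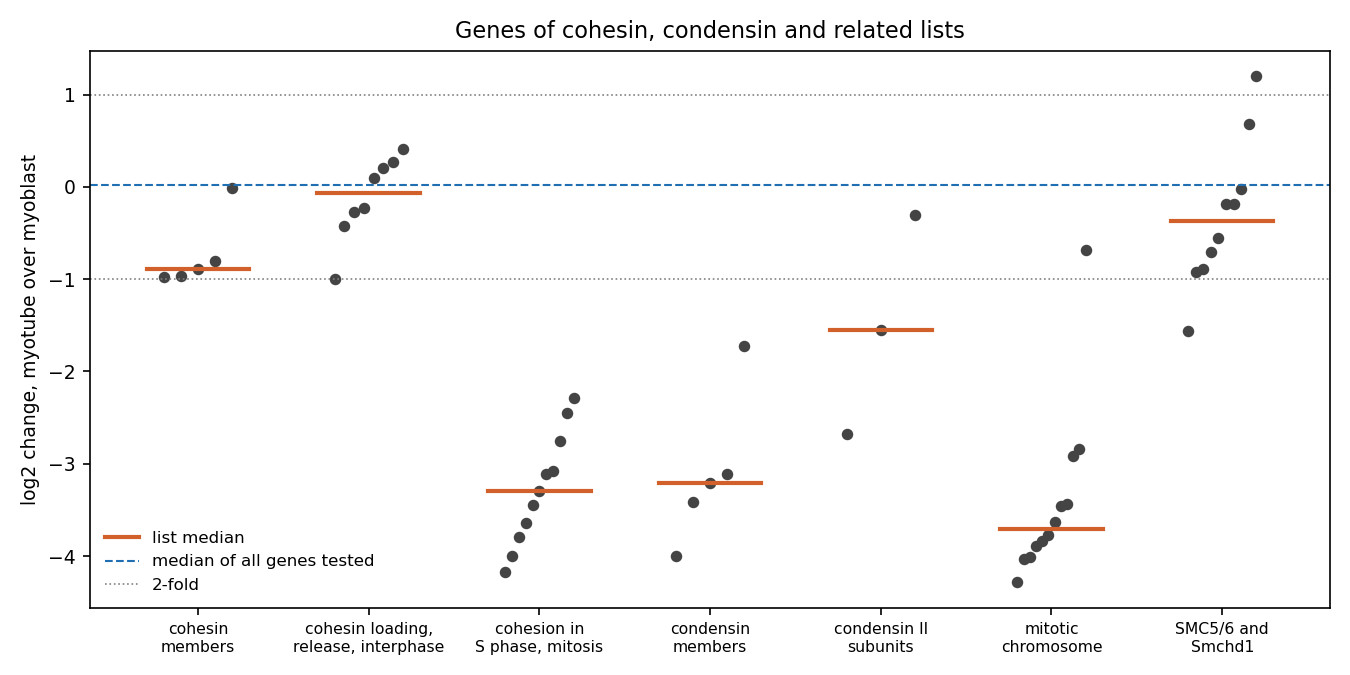
Log2 change of myotube over myoblast for each tested gene (points) of the cohesin and condensin members and 5 related lists, with list medians as bars, the median of all genes tested as a dashed line and 2-fold as dotted lines. The lists of S phase cohesion, condensin and mitotic chromosome genes have medians of -3.29, -3.21 and -3.70, those of cohesin and its interphase regulators -0.89 and -0.07.

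The third family of SMC complexes, SMC5/6, and the related protein Smchd1 had log2 changes between -1.56 and 1.20. SMC5/6 acts in DNA repair and replication, and Smchd1 in silencing of the inactive X chromosome and of imprinted clusters. Of 10 genes, 7 were lower and 2 higher, beside 39.2% and 40.2% of all genes tested. Past 2-fold, 0 were lower and 1 was higher (9.20% and 12.4% of all genes), and the median log2 change was -0.37. Smchd1 fell from 164 ± 4.29 to 86.2 ± 2.85 CPM (-0.92 on the log2 scale, SE 0.05). Slf1, which recruits SMC5/6 to damaged DNA, rose from 28.2 ± 1.72 to 64.9 ± 5.40 CPM (1.20 on the log2 scale, SE 0.07, past 2-fold with adjusted p = 0.00615). Eid3 fell by 1.56 on 18 counts in the myotube group. The meiotic cohesin genes Smc1b, Rad21l, Rec8 and Stag3 summed to at most 0.359 CPM in any library, and 0 of the 4 could be tested.

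Over the 6 libraries, the genes with a centred log2 profile nearest to the mean condensin profile, among 9811 genes outside the members with a mean of at least 10 CPM, were Bard1, Hells, Fignl1, Spag5 and Igfbp2. Their root mean square distances were 0.056 to 0.074, and their log2 changes -3.07 to -3.23. Bard1 is the partner of Brca1, Hells a chromatin remodeller and Spag5 a spindle protein. Igfbp2, an insulin-like growth factor binding protein, had the highest level of the 5, 1078 CPM in myoblasts and 120 CPM in myotubes. A near profile does not show a shared role. The condensin genes themselves lay at 0.041 (Ncapd2) to 0.67 (Smc4), and each of them except Ncapd2 was farther from the condensin mean than those 5 genes. Nearest to the mean cohesin profile were Ube2z, Cttn, Prrx1, Cyth2 and Dip2b, at 0.013 to 0.022. The cohesin genes themselves lay at 0.042 (Stag1) to 0.36 (Stag2), each farther from the cohesin mean than Ube2z, Cttn, Prrx1, Cyth2 and Dip2b. With groups this far apart a profile is mostly the size of its change, and many genes have a change of similar size.

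The 6 libraries held 7370169 to 11723881 counts, fewer in each myotube library than in any myoblast library. Markers were checked against the labels. The 6 myotube markers (Myog, Acta1, Ckm, Myh3, Tnnt3 and Mymk) summed to 67.2 to 85.7 CPM in myoblasts and 12061 to 12599 CPM in myotubes. The 6 genes of undifferentiated reserve or satellite-like cells were Pax7, Myf5, Cd34, Hey1, Heyl and Spry1. Of these, 4 were called higher and 1 lower, calls that 40.2% and 39.2% of all genes tested received. Pax7 was not called (59.2 to 63.8 CPM), and Myf5 was lower (67.4 to 61.5 CPM). The sum of the 6 went from 222 to 226 CPM up to 385 to 411 CPM. Heyl (33.0 to 127 CPM) and Cd34 (41.0 to 91.3 CPM) rose the most in CPM. Of 5 fibroblast markers, Dcn rose from 6.93 to 237 CPM, Pdgfra and Twist2 fell, and Lum and Tcf21 had at most 14 counts in a group. Adipocyte, endothelial and leukocyte markers summed to at most 0.285, 0.379 and 2.40 CPM in any library. What share of the myotube samples was unfused cells is not given by the labels, and the part of such cells in the remaining condensin RNA was not tested.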

How the data were processed

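Poly(A) RNA libraries of 3 C2C12 myoblast and 3 myotube samples were analysed. The deposited values are the authors' unnormalized counts, 1 column per library and 1 row per gene. The tools named in the submitters' processing notes are fastp, STAR and featureCounts, and the build is mm10. Versions, annotation, strand setting and treatment of multimapping reads: not given in the sources used here. The 1049 genes without a symbol (0.212 to 0.257% of counts) were kept under their Entrez ID.

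Counts were tested with edgeR 4.0.16 in R 4.3.3 without a replicate block (filterByExpr with a minimum count of 10 and total of 15, TMM, robust quasi-likelihood F test, Benjamini-Hochberg adjustment over 12800 genes, threshold 0.05), and past 2-fold with glmTreat. The SE is the absolute log2 change over the square root of F. CPM are after TMM scaling. Paralog ratios are log2 of (CPM + 0.5). Coordinates are RefSeq's for GRCm38, which mm10 names. Exon lengths, exon overlap on either strand and shared 50-base windows come from GENCODE transcripts. Windows were matched on both strands to transcripts of all other genes, including genes that overlap at the same locus. Each gene's windows came from its longest coding transcript. Of these, 1.56% in Smc3, 18.5% in Ncapg (Lcorl) and 0% in the other 8 members had such a match. The condensin II gene Ncaph2, not a member, had 32.3%. Over all its annotated exons, Ncapd2 shares 3.78% of its bases with Gm28967 and Scarna10 on its own strand, where reads may not be assignable.

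Named genes were all members, condensin II, the interphase regulators, and in the other lists the 2 largest called changes in the main direction and the largest in the other, at a mean of at least 1 CPM, plus the 5 nearest profiles. Members and lists were chosen with earlier results of these data known. Each library counted as 1 sample. Replicates of a group differed by more than sampling noise (chi-square per degree of freedom 1.37 to 3.37), which does not show that they were separate cultures. The common biological coefficient of variation of the fit was 3.56%. The alternatives tried were scaling by total counts or by DESeq2 (1.42.0) size factors, the Wald test of DESeq2, limma-voom (limma 3.58.1), no filter, 1 CPM in at least 3 libraries, the replicate block, thinning to the smallest library, other offsets and leaving out each library.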

Additional observations from a re-analysis of the deposited data

How the results depend on the processing

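Under the 14 alternative fits, condensin had 5 members lower in each, and cohesin 4 lower in each except total counts, where Stag2 was also called. Past 2-fold, condensin kept 5 lower in each of the 12 fits with that test, and cohesin had 0 except with total counts, which gave 2. Sign changes were those of Stag2 without myotube replicate 1 (log2 change 0.0030, adjusted p = 0.955; range -0.036 to 0.0030 over the libraries left out) and of Esco1 with total counts (-0.055, adjusted p = 0.550), neither called. Mau2 lost its call with total counts, and Hdac8 was called after thinning (adjusted p = 0.0150, range over its alternatives 0.0150 to 0.386). The total-count results follow from the shift of -0.15 in all log2 changes, and the cause of the others was not tested. The paralog differences kept their sign throughout; that of Ncapg over Ncapg2 ranged from -1.53 to -1.08 and was -1.53 without myotube replicate 3.

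With the replicate number as a block, 5142 genes were called higher and 5019 lower, beside 5146 and 5024 without it, and no call of a named gene changed. Deviations from the group mean correlated by 0.0092, 0.042 and 0.026 between libraries of the same number. Each library correlated best with its own number, a weak hint from the data that the labels do not explain, so the numbers were not taken as pairs. Low counts limit the myotube level of several named genes, among them Ncapg with 137 counts in the group, Chtf18 with 49 and Eid3 with 18.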
